A study of Homo sapiens with 4 samples.

Results

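The granin and prohormone processing genes are 10 genes of the dense-core granule, the organelle in which neuroendocrine cells store peptides and monoamines: CHGA, CHGB, SCG2, SCG3, VGF, PCSK1, PCSK2, CPE, SCG5 and PCSK1N. They were chosen by symbol, as a family and not by a threshold on any measured value, with earlier results of these data known. Each matched 1 of the 64252 Ensembl gene IDs in the table. RNA was sequenced from SK-N-BE(2) cells, an established human neuroblastoma line with amplified MYCN. The cells carried either a scramble short hairpin RNA (shScb, the control, 2 libraries) or a hairpin directed against TTC8 (shTTC8, the knockdown, 2 libraries). No other treatment, clone or time after delivery is named in the labels, and an effect of TTC8 loss and any other effect of its hairpin cannot be told apart. TTC8, a subunit of the BBSome that moves membrane proteins through the primary cilium, was read first as a check of the labels. It stood at 196 and 191 CPM (counts relative to library size, scaled between libraries by TMM) in shScb and at 29.1 and 30.6 CPM in shTTC8, which left 0.154 of the control level (edgeR adjusted p = 5.38e-12).

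Granins are acidic secretory proteins that aggregate in the trans-Golgi network and form the core of the dense-core granule, and several of them are also precursors of bioactive peptides. Inside the granule, the prohormone convertases encoded by PCSK1 and PCSK2 cut precursors at paired basic residues, and the carboxypeptidase encoded by CPE trims the basic residues that remain. The product of SCG5 is a chaperone that the PCSK2 enzyme needs for its activation, and the product of PCSK1N is an inhibitor of the PCSK1 enzyme. Neuroblastoma arises from the sympathoadrenal lineage, whose mature cells store noradrenaline together with granins, and chromogranin A is a marker of neuroendocrine tumours.

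Most of these genes were higher after the knockdown, and CHGA was the exception. Of 9 tested members, 7 rose and 1 fell by edgeR's quasi-likelihood test (Benjamini-Hochberg adjusted p under 0.05 over 19610 genes). Across all genes tested, 15.2% were called higher and 16.7% lower, 31.9% in all, and among protein-coding genes 39.2% were called. Among the genes with a mean of at least 5 CPM, a level that 8 of the 10 members reached, the shares were 20.4% and 22.8%, 43.2% in all. The median log2 fold change of the tested members, shTTC8 over shScb, was 0.65, beside 0.004 over all tested genes. The 2 called rises of at least 2-fold were those of CHGB and PCSK1N. Of all tested genes, 2.39% were called with a rise and 2.91% with a fall of that size. The libraries of the 2 groups did not overlap for any of the 10 members, 9 of which were higher and 1 lower in shTTC8. Over all tested genes the groups did not overlap in 65.5%, with 32.5% higher and 32.9% lower. Together the 10 genes took 0.255% and 0.268% of all counts in shScb and 0.410% and 0.415% in shTTC8. Whether replicates were grown as separate cultures is not stated, and the p-values therefore measure only a spread between samples that may be technical. In bulk RNA, a change in the number of cells that express a gene and a change in RNA per cell cannot be told apart.

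**Figure D1:**
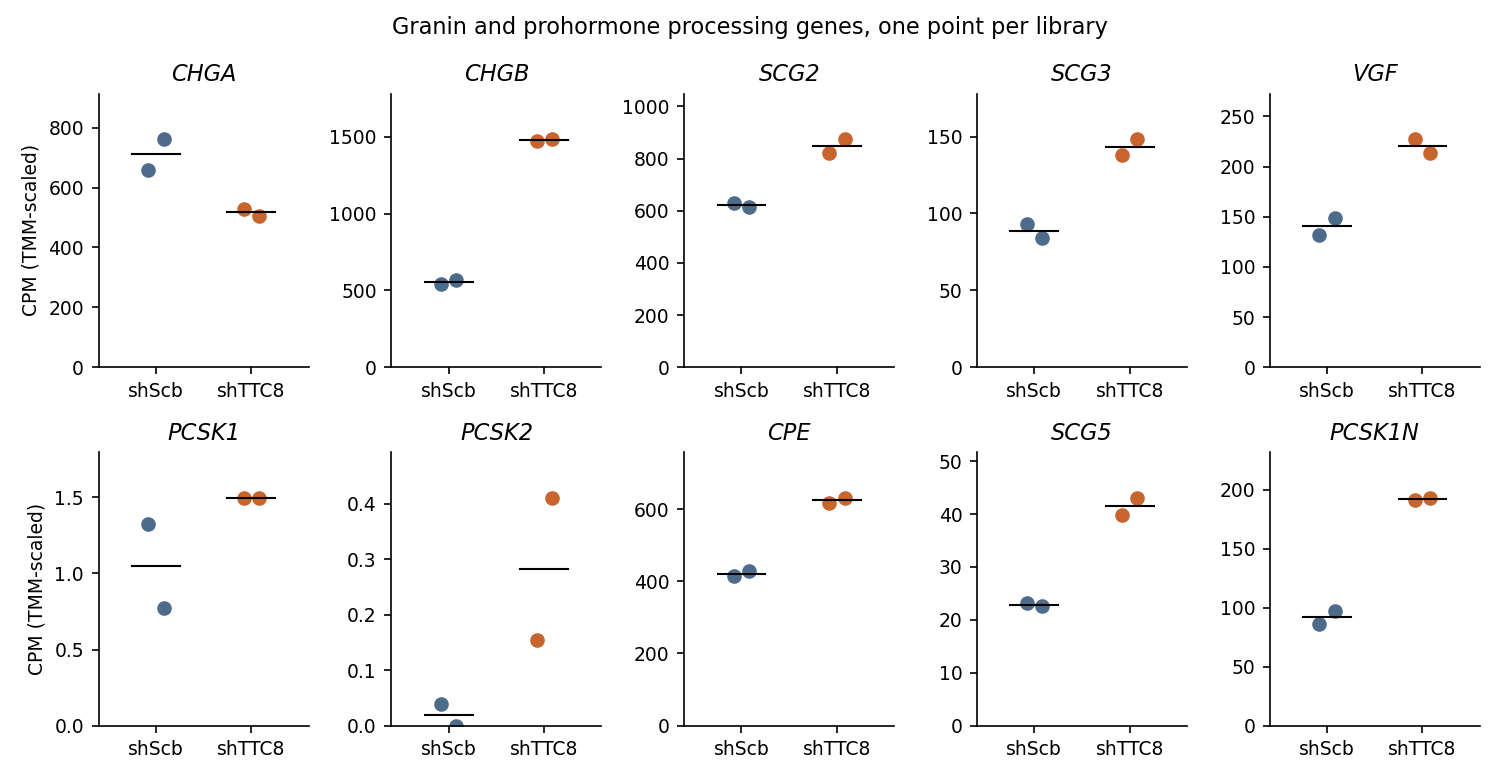
Level of each of the 10 genes in each library, in CPM scaled by TMM, with the points for replicates 1 and 2 side by side and a bar at the group mean. Each vertical axis starts at 0 and has its own range. CHGB goes from 543 and 566 CPM in shScb to 1472 and 1485 CPM in shTTC8, whereas CHGA is lower in both shTTC8 libraries.

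Among the 5 granins, CHGB changed most. CHGB (ENSG00000089199, chromosome 20, 5911430 to 5925361, GRCh38, plus strand) encodes chromogranin B, a major soluble protein of the granule core. It had 27439 and 30768 counts in shScb replicates 1 and 2 and 57163 and 61467 counts in the shallower shTTC8 libraries. In CPM this was 543 and 566 against 1472 and 1485, so that replicates differed by far less than the groups. CHGB rose 2.67-fold (log2 fold change 1.41, SE 0.06, edgeR adjusted p = 1.11e-09), which put it at the 98.1 percentile of the log2 fold changes of all tested genes.

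CHGA (ENSG00000100604, chromosome 14, 92923080 to 92935293, GRCh38, plus strand) encodes chromogranin A, the precursor of vasostatin and pancreastatin. Its levels were 659 and 762 CPM in shScb and 529 and 506 CPM in shTTC8. The shScb libraries lay far apart (SD 72.5 CPM, n = 2), and the lower of them was still above both shTTC8 libraries. CHGA fell to 0.728 of the control level (log2 fold change -0.46, SE 0.07, edgeR adjusted p = 2.04e-04). The fall was -0.35 on the log2 scale without shScb replicate 2.

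The remaining granins rose by smaller amounts than CHGB. SCG2 (ENSG00000171951, chromosome 2, 223596940 to 223602503, GRCh38, minus strand) encodes secretogranin II, the precursor of secretoneurin. It stood at 631 and 615 CPM in shScb and at 821 and 875 CPM in shTTC8, a 1.36-fold rise (log2 fold change 0.44, SE 0.06, edgeR adjusted p = 6.15e-05). SCG3 (ENSG00000104112, chromosome 15, 51681353 to 51721031, GRCh38, plus strand) encodes secretogranin III, which binds chromogranin A and the granule membrane. It went from 93.1 and 83.9 CPM to 138 and 148 CPM, a 1.62-fold rise (log2 fold change 0.69, SE 0.07, edgeR adjusted p = 2.45e-06). VGF (ENSG00000128564, chromosome 7, 101162509 to 101165593, GRCh38, minus strand), a gene first known for its induction by nerve growth factor, encodes a precursor of several neuropeptides. It went from 132 and 149 CPM to 227 and 214 CPM, a 1.57-fold rise (log2 fold change 0.65, SE 0.07, edgeR adjusted p = 5.13e-06). For SCG2, SCG3 and VGF both shTTC8 libraries lay above both shScb libraries, by more than the replicates of either group lay apart.

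**Figure D2:**
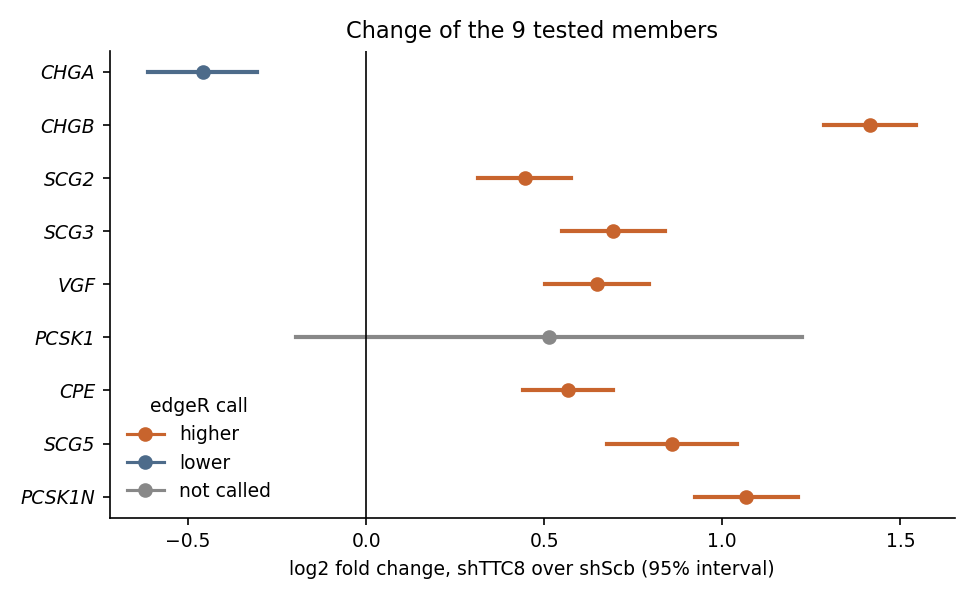
Log2 fold change (shTTC8 over shScb) of the 9 tested genes, with 95% intervals from the quasi-likelihood fit and colours for the edgeR call. CHGA alone lies below 0, at -0.46, CHGB lies farthest above it, at 1.41, and the interval of PCSK1 spans 0.

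The processing enzymes were expressed very unevenly. CPE (ENSG00000109472, chromosome 4, 165361194 to 165498320, GRCh38, plus strand), the carboxypeptidase, stood at 415 and 427 CPM in shScb and at 616 and 632 CPM in shTTC8. It rose 1.48-fold (log2 fold change 0.57, SE 0.06, edgeR adjusted p = 4.43e-06), with means of 421 ± 8.29 and 624 ± 10.8 CPM (SD, n = 2) and no overlap between the groups. PCSK1 (ENSG00000175426, chromosome 5, 96390415 to 96434143, GRCh38, minus strand), the convertase that makes the first cuts in many precursors, had only 67 and 42 counts in shScb and 58 and 62 counts in shTTC8. That was 1.33 and 0.773 CPM against 1.49 and 1.50 CPM. PCSK1 was not called (log2 fold change 0.51, 95% interval -0.20 to 1.22, edgeR adjusted p = 0.273). The estimate turned on the shScb libraries: leaving out shScb replicate 2 gave 0.17 and leaving out shScb replicate 1 gave 0.95 (edgeR adjusted p = 0.789 and 0.0881).

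PCSK2 (ENSG00000125851, chromosome 20, 17226107 to 17484578, GRCh38, plus strand), the other neuroendocrine convertase, was close to undetected and did not pass the low-count filter. Its counts were 2 and 0 in shScb and 6 and 17 in shTTC8. A count of 0 allows a level of up to 0.0552 CPM in shScb replicate 2 (3 counts). Summed over each group's libraries and set against their depth, the ratio of shTTC8 to shScb was 15.0, with an exact 95% interval of 3.72 to 132 that covers counting error only. With no low-count filter the test did not call it (edgeR adjusted p = 0.0694). In fits with 1 library left out, PCSK2 passed the filter only through shTTC8, where it was higher, so a rise there was built into its entry. Its log2 fold change was 6.68 without shScb replicate 1, 2.76 without shScb replicate 2 and 4.25 without shTTC8 replicate 1.

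Both genes for small proteins that act on the convertases rose. PCSK1N (ENSG00000102109, chromosome X, 48831094 to 48835633, GRCh38, minus strand), which encodes proSAAS, the inhibitor of the PCSK1 enzyme, stood at 86.2 and 97.4 CPM in shScb and at 192 and 193 CPM in shTTC8. It rose 2.10-fold (log2 fold change 1.07, SE 0.07, edgeR adjusted p = 4.03e-08). SCG5 (ENSG00000166922, chromosome 15, 32641676 to 32697098, GRCh38, plus strand), the chaperone of the PCSK2 enzyme, stood at 23.1 and 22.6 CPM in shScb and at 39.8 and 43.1 CPM in shTTC8. It rose 1.81-fold (log2 fold change 0.86, SE 0.09, edgeR adjusted p = 2.87e-06). SCG5 was thus measured in all 4 libraries, where the convertase it serves had at most 17 counts. An antisense gene, SCG5-AS1, overlaps 11 exonic bases of SCG5 and held 0.0524% as many counts. No other member shares exonic positions with another gene of GENCODE 29.

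Levels can be compared between the genes only per length, here as CPM per kilobase of the union of a gene's exons. In shScb the most abundant transcripts were those of SCG2 and CHGA, at 229 ± 4.27 and 229 ± 23.4 (SD, n = 2), which did not differ beyond their spread. CPE followed at 142 ± 2.80 and CHGB at 122 ± 3.62 CPM per kilobase (SD, n = 2). PCSK1N at 67.4 ± 5.81, VGF at 52.0 ± 4.42, SCG3 at 26.7 ± 1.95 and SCG5 at 10.4 ± 0.178 CPM per kilobase (SD, n = 2) formed the lower part of the order. PCSK1 lay far under them, at 0.198 ± 0.0736 CPM per kilobase (SD, n = 2). In shTTC8 the order of the upper genes was different. CHGB led at 326 ± 2.06, next to SCG2 at 312 ± 13.9 CPM per kilobase (SD, n = 2), and the lower CHGB library (325) was barely above the higher SCG2 library (322). CPE was at 211 ± 3.66, CHGA at 167 ± 5.27 and PCSK1N at 141 ± 0.886 CPM per kilobase (SD, n = 2). CHGA thus moved from a shared first place to the fourth. Where the longest transcript was used as the length, CHGA led alone in shScb, at 344 CPM per kilobase, CHGB (217) stood above CPE (174), and CHGB led in shTTC8 at 580, above SCG2 at 329.

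**Figure D3:**
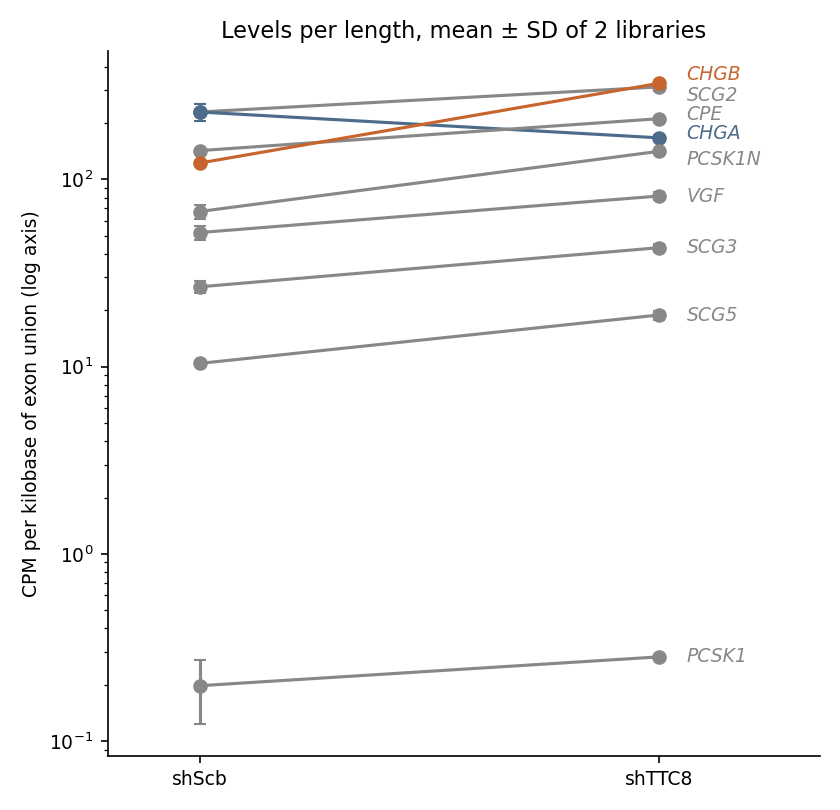
Level per length in CPM per kilobase of exon union, on a log axis, as mean ± SD of 2 libraries, for the 9 tested genes, with the lines joining the 2 groups. CHGB passes from 122 to 326 while CHGA goes from 229 to 167, and PCSK1 stays under 0.3 CPM per kilobase in both groups. PCSK2, at 0 in 1 library, is not drawn.

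A ratio of genes within a library does not depend on how libraries are scaled. The log2 ratio of CHGB to CHGA per kilobase was -0.83 and -0.98 in shScb and 0.93 and 1.01 in shTTC8. CHGB transcripts were therefore 0.535 times as abundant as CHGA transcripts in the control and 1.96 times as abundant after the knockdown. The difference of 1.87 exceeded the SDs of 0.10 and 0.05 (n = 2). An exact two-sided permutation test gave p = 0.333, the smallest that 2 libraries against 2 can give. For PCSK1 over its inhibitor PCSK1N, the log2 ratio was -7.98 and -8.94 in shScb and -8.97 in each shTTC8 library. The difference of -0.51 was within the SD of 0.68 in shScb (exact permutation p = 0.333), and it ranged from -0.03 without shScb replicate 1 to -0.98 without shScb replicate 2. Ratios with PCSK2 were not formed, since it was at 0 in shScb replicate 2.

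CHGB and SCG2 had no RefSeq promoter window at hand, so their promoters were not searched. RefSeq promoter windows (GRCh38.p14, 250 bases before to 50 after a start site) were at hand for the other 8 of the 10 members, in 10 windows. They were searched on both strands for the cyclic AMP response element TGACGTCA, the E-box CACGTG, the EGR-type site GCGNGGGCG and the GC box GGGCGG, which can overlap the EGR-type site. A member counted if any of its windows matched, and PCSK1 and PCSK2 have 2 windows each. The shares over RefSeq are per window, so the units are not the same. TGACGTCA lay in the windows of 3 members, CHGA, VGF and PCSK1, and in 1.85% of 35116 RefSeq windows of the same length. It began 54, 79 and 77 bases before the start, respectively. The 130 bases before each start are shown because these 3 genes hold the same element. Of these, VGF rose and CHGA fell, and PCSK1 was not called. The interval of the PCSK1 log2 fold change, -0.20 to 1.22, contains the VGF value of 0.65. PCSK1 is therefore not shown to have moved differently from VGF. The part of the element in these changes was not tested. Capitals mark matches to TGACGTCA, CACGTG and GCGNGGGCG. The stretches are chr14:92923020-92923149 (plus strand), chr7:101165570-101165699 (minus strand) and chr5:96433249-96433378 (minus strand), each printed 5′ to 3′ along its gene.
CHGA: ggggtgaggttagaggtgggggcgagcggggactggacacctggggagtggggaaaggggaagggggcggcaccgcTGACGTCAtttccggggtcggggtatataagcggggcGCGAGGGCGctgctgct
VGF: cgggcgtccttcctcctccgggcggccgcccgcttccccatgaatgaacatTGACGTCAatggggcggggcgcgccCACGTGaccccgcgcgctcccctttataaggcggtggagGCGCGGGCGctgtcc
PCSK1: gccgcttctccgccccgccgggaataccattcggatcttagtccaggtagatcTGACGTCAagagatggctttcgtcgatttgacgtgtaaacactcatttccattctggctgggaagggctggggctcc

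The CHGA and VGF stretches also hold a match to GCGNGGGCG, 17 and 15 bases before the start, and the VGF stretch holds CACGTG at 54 bases. GCGNGGGCG was found in 3 of the 8 members with a window, PCSK2 being the other, and in 9.43% of all windows. CACGTG was found in VGF alone of these 8, against 7.26% of all windows. GGGCGG was found in 7 of the 8 members, CPE being the one without it, and in 45% of all windows. SCG3, SCG5, CPE and PCSK1N, all of which rose, had no match to TGACGTCA, CACGTG or GCGNGGGCG in these windows. A match describes the letters of a window and is not evidence of binding.

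The other enzymes that process secreted precursors went both ways. Of 13 tested genes in this list of 15, 3 were higher and 3 lower (23.1% each), with a median log2 fold change of 0.05. These shares are near those of all genes with a mean of at least 5 CPM, 20.4% higher and 22.8% lower. Over all tested genes they were 15.2% and 16.7%. FURIN, the convertase of the trans-Golgi network that acts in nearly all cells, rose from 39.9 to 63.3 CPM (log2 fold change 0.67, SE 0.07, edgeR adjusted p = 5.92e-06). PCSK7, another widely expressed convertase, rose by 0.51 (SE 0.08), but shares exonic positions with TAGLN, which had 13.4% of its counts. CPD, the carboxypeptidase D gene, whose product trims precursors in the trans-Golgi network as CPE does in granules, fell from 42.7 to 23.4 CPM (log2 fold change -0.87, SE 0.08, edgeR adjusted p = 2.33e-06). PAM, which amidates the ends of peptides inside granules, fell from 120 to 90.7 CPM (log2 fold change -0.41, SE 0.07, edgeR adjusted p = 3.60e-04). FURIN and CPE therefore rose in the same libraries in which CPD and PAM fell.

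Among genes for the assembly and membrane of the granule, more rose than fell. Of 26 tested, 11 were higher (42.3%) and 3 lower (11.5%), with a median log2 fold change of 0.23. The shares over all tested genes were 15.2% and 16.7%, and 20.4% and 22.8% at a mean of at least 5 CPM. PTPRN2, a transmembrane protein of the dense-core granule also known as phogrin, rose from 38.5 to 73.6 CPM (log2 fold change 0.93, SE 0.07, edgeR adjusted p = 2.26e-07). SYT4, a synaptotagmin of maturing granules, rose from 23.2 to 45.5 CPM (log2 fold change 0.97, SE 0.08). CYB561, the granule cytochrome that supplies electrons for noradrenaline and peptide amidation enzymes, fell from 103 to 66.6 CPM (log2 fold change -0.62, SE 0.06). TBC1D8, a gene for a protein with a RAB GTPase-activating domain, fell (log2 fold change -1.10, SE 0.08), and CNOT11, with 164% as many counts, overlaps its exons. Without shTTC8 replicate 1 the number of higher genes in this list was 7, and without shScb replicate 1 the number of lower genes was 5.

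Genes for docking and release went both ways, with 9 of 27 tested higher (33.3%), 8 lower (29.6%) and a median log2 fold change of 0.09. All tested genes gave 15.2% and 16.7%, and those with a mean of at least 5 CPM 20.4% and 22.8%. SNAP25, a SNARE of the plasma membrane, rose from 42.7 to 110 CPM, and CPLX2, a complexin that controls SNARE-driven fusion, from 241 to 491 CPM (log2 fold change 1.03, SE 0.06, edgeR adjusted p = 2.26e-08). The vesicle GTPase genes RAB3C and RAB3A rose by 0.90 (SE 0.07) and 1.15 (SE 0.09) on the log2 scale. RAB3A shares exonic positions with MPV17L2, which had 102% of its counts. Other vesicle GTPase genes of the list, named here after their values were seen, did not follow them. RAB27B fell from 10.3 and 7.30 CPM in shScb to 1.16 and 1.79 CPM in shTTC8 (log2 fold change -2.58, SE 0.24, edgeR adjusted p = 6.30e-06). RAB3B fell to 0.629 of the control level (edgeR adjusted p = 1.31e-04). RAB3D (log2 fold change 0.06), RAB27A (-0.06) and RAB26 (-0.10) were not called. Also among the lower genes, and named on the same terms, were the calcium sensor gene SYT7 at 0.499 and the granule priming gene CADPS at 0.659 of the control level.

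**Figure D4:**
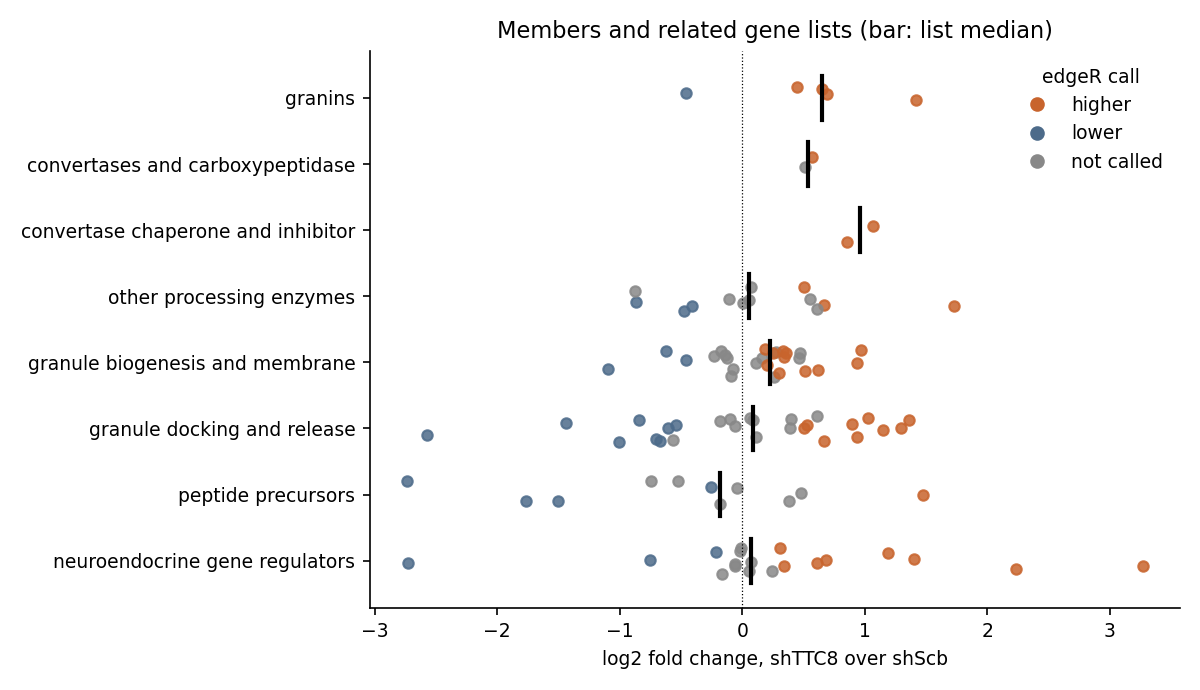
Log2 fold change (shTTC8 over shScb) of each tested gene in the member groups and the related lists, coloured by edgeR call, with a bar at the median of each list's tested genes. SST and CARTPT, which had no counts in shScb, are not drawn. The 5 granins and the chaperone and inhibitor genes lie at or above 0.44 except for CHGA, whereas the docking and peptide precursor lists spread to both sides of 0.

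Peptide precursors, the cargo on which these enzymes act, also went both ways. Of 13 tested genes in this list of 20, 3 were higher (23.1%) and 4 lower (30.8%), with a median log2 fold change of -0.18. Beside these stand 15.2% and 16.7% of all tested genes, and 20.4% and 22.8% of those with a mean of at least 5 CPM. NPY, the neuropeptide Y precursor of sympathetic cells, fell from 37.9 to 11.1 CPM (log2 fold change -1.77, SE 0.09), and VIP from 13.7 to 4.84 CPM (log2 fold change -1.50, SE 0.13). SST, the somatostatin precursor, had no count in either shScb library and 262 and 243 counts in shTTC8, at least 110-fold higher when each shScb library is set to 3 counts. CARTPT had no count in shScb and 54 and 65 counts in shTTC8, at least 25.8-fold higher on the same floor. Both SST and CARTPT passed the low-count filter only through shTTC8, so they could enter the test only as rises. Both are among the 3 genes counted as higher, and genes near 0 in all libraries are not in the tested 13.

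Transcription factors and cofactors known to act on neuroendocrine genes were also read from a list. Of 19 tested, 8 were higher (42.1%) and 3 lower (15.8%), with a median log2 fold change of 0.07. The shares over all tested genes were 15.2% higher and 16.7% lower, and 20.4% and 22.8% at a mean of at least 5 CPM. REST, a repressor that silences granin and other neuronal genes outside the nervous system, stood at 12.7 and 12.0 CPM in shScb and at 7.72 and 6.86 CPM in shTTC8. It fell to 0.592 of the control level (log2 fold change -0.76, SE 0.13, edgeR adjusted p = 3.99e-04). NOA1, with 987% as many counts, overlaps 23 of its exonic bases. Of the corepressor genes, RCOR1 rose by 0.31 (SE 0.07, edgeR adjusted p = 0.0036), and RCOR2 (0.06), RCOR3 (-0.01) and SIN3A (-0.06) were not called. MYT1 and ST18, zinc finger factors of neural and endocrine differentiation, rose from 8.77 to 20.0 CPM and from 0.310 to 3.04 CPM. ST18 would not have passed the low-count filter on its shScb libraries alone. EGR1, the immediate early factor that binds sites of the GCGNGGGCG type, stood at 30.7 CPM in shTTC8, 4.70 times its level in shScb. The listed factors of the cyclic AMP response element, named after their values were seen, went both ways. CREB1 was lower (log2 fold change -0.22, edgeR adjusted p = 0.0384) and CREM higher (0.34, edgeR adjusted p = 0.0315), and ATF1 was not called (-0.06). The part of these factors in the members' change was not tested.

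By the distance between centred log2 CPM over the 4 libraries, the protein-coding genes with a pattern most like that of CHGB, among 10757 with a mean of at least 5 CPM, were MAPRE3, MDGA1 and MFAP3L. Their distances were 0.0530, 0.110 and 0.116 on the log2 scale, and their log2 fold changes were 1.40, 1.34 and 1.44, beside 1.41 for CHGB. With 4 libraries in 2 groups this measure ranks genes mainly by the size of the group difference.

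The 4 libraries held 38284663 to 55331449 counts, with the shTTC8 libraries the shallower ones. Mitochondrial transcripts took 8.27% to 8.94% of the counts in shScb and 7.61% to 7.70% in shTTC8. All 7 sympathetic neuroblast markers checked passed the low-count filter, and 5 of them were lower and 1 higher in shTTC8, with summed levels of 2997 to 3155 CPM in shScb and 2488 to 2560 CPM in shTTC8. The 7 tested fibroblast and endothelial markers of 10 were all lower (summed 476 to 495 CPM in shScb and 227 to 237 CPM in shTTC8), with PECAM1 at 0 throughout. Schwann cell and glia markers summed to 37.1 to 38.7 and 14.3 to 15.8 CPM, with 1 of 5 tested lower and SOX10 at 0. Epithelial and blood cell markers summed to 23.3 to 24.2 and 10.4 to 10.6 CPM, with 2 of 5 tested lower and CD3E at 0. Adrenal cortex and chromaffin markers summed to 2.24 to 2.28 and 3.73 to 4.16 CPM, with 1 of 2 tested higher (STAR, whose exons overlap those of ASH2L, with 2520% as many counts) and CYP11B1 and NR5A1 at 0. Over all tested genes, 15.2% were called higher and 16.7% lower, and 20.4% and 22.8% at a mean of at least 5 CPM. The part of these markers in the members' change was not tested.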

How the data were processed

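RNA was sequenced from 2 shScb and 2 shTTC8 libraries of SK-N-BE(2). TRIzol extraction and an Illumina TruSeq RNA kit were used, per the labels' protocols. HISAT2 2.2.0 and hg38 are named per the submitters' processing notes. For the counter, its strand setting and its annotation, no name is given in the sources used here. Raw counts per Ensembl gene, not normalized by the authors, make up the deposited table. Groups came from the sample titles.

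The test was that of edgeR 4.0.16 (R 4.3.3): filterByExpr (19610 genes kept), TMM scaling and a robust quasi-likelihood F test, two-sided, adjusted by Benjamini-Hochberg across the tested genes. CPM use TMM-scaled library sizes. Each SE is the absolute log2 fold change divided by the root of F. Log2 CPM for the likeness measure used a prior count of 2. Positions, exon lengths and overlaps are those of GENCODE 29 (GRCh38, the assembly hg38 names). Promoter windows are those of RefSeq. Floors use 3 counts, and intervals and floors cover counting error only. The test was tried on simulated data before use, with 200 of 19610 genes changed. It called 4% of 1.25-fold, 30% of 1.5-fold, 80% of 2-fold and 94% of 4-fold changes. The simulation gave all genes 1 common dispersion and changed far fewer genes than were called in the data. These shares therefore need not hold for the data. Either way, a gene that was not called is not shown to be unchanged.

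Members and lists were chosen with earlier results of these data known, so no list was tested as a set. Named genes are all members, TTC8, up to 4 called genes of each list by smallest p, REST with its corepressors, and the 3 genes most like the member with the smallest p. One gene that this rule names is not reported here. Paired basic sites in the proteins were not analysed here. The alternatives tried were scaling by RLE or by library size alone, no filter or a stricter one, DESeq2 1.42.0, limma-voom 3.58.1, a non-robust fit, the replicate number as a block, an offset for GC content and length (lowess span 0.3), both together, an adjusted p under 0.01, a 2-fold minimum and each library left out in turn.

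Replicates were compared before averaging. Within shScb their counts differed by more than sampling noise (chi-square per df 11.4), and so did those within shTTC8 (6.40).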

Additional observations from a re-analysis of the deposited data

How the results depend on the processing

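The counts of 7 higher and 1 lower member held under the alternatives run except for 3. The 2-fold minimum left 2 higher and 0 lower. Of these, PCSK1N rose by less than 2-fold with the GC and length offset (log2 fold change 0.88). The other exceptions were the fits without shScb replicate 1 and without shTTC8 replicate 1, which differed by PCSK2 alone. PCSK2 entered those fits only through shTTC8, where it was higher, so its addition there is no further support. The 9 tested members had the same direction in each alternative fit. Over all genes, leaving out 1 library gave 1880 to 3395 higher and 2383 to 3555 lower, the lowest of both without shTTC8 replicate 1. An adjusted p under 0.01 left 1917 higher, and the 2-fold minimum left 468 higher and 570 lower. With library size alone, 55.3% of the called genes were higher, against 47.5% with TMM. The labels do not say what the replicate numbers mean, and same-numbered libraries did not deviate together (r = 0.03 across genes). With the replicate block 3092 genes were higher and 3343 lower, and 7 members were higher and 1 lower.

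Among the lists, granule assembly genes gave 5 lower with the GC and length offset, 7 higher at an adjusted p under 0.01, 7 to 10 higher and 3 to 5 lower without 1 library, and 0 higher and 1 lower at 2-fold. The 2-fold minimum also left 1 higher and 0 lower processing enzymes, 4 higher and 3 lower docking genes, and 4 higher and 1 lower regulators. With the longest transcript as length, shScb levels were 344 (CHGA), 217 (CHGB), 242 (SCG2), 174 (CPE), 18.5 (SCG5) and 87.5 (PCSK1N) CPM per kilobase. The uncalled log2 fold changes of RCOR2 and RCOR3 changed sign. RCOR3 was 0.028 with library size alone, 0.136 with the GC and length offset, 0.135 with that offset and the replicate block, and -0.0872 to 0.0609 without 1 library, above 0 without shScb replicate 1 and without shTTC8 replicate 1 (0.0415). RCOR2 was -0.070 with that offset, -0.0715 with the offset and the block, and -0.0288 to 0.138 without 1 library, below 0 without shTTC8 replicate 1 and without shScb replicate 1 (-0.00098). The cause of these shifts was not tested, beyond fewer genes passing a stricter rule. Depth limits PCSK1 and PCSK2, with at most 67 and 17 counts in any library.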

Other observations

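The tested protein-coding genes nearest to each member, 1 on each side, were read as a description of the 10 loci, a choice made after the data were seen. Of these 20 neighbours, 4 were higher, 5 lower and 11 not called, with a median log2 fold change of 0.08. Among all tested protein-coding genes, 39.2% were called in either direction. CHGB, the member that rose most, stands between SHLD1 (0.22) and TRMT6 (0.11), neither of which was called. On the higher-coordinate side of CPE the nearest tested gene was SPOCK3, for a secreted proteoglycan. It went from 0.142 to 2.14 CPM (log2 fold change 3.88, SE 0.40). Only its shTTC8 level carried it past the low-count filter, so its place among the 4 higher neighbours follows from its rise. Genes that were not tested may lie between SPOCK3 and CPE. VGF lies next to AP1S1, a subunit of the clathrin adaptor that sorts cargo at the trans-Golgi network, which rose from 70.5 to 112 CPM (log2 fold change 0.67, SE 0.06). SCG5 rose, and its neighbour GREM1, a secreted inhibitor of bone morphogenetic proteins, fell from 24.2 to 8.35 CPM (log2 fold change -1.53, SE 0.10). These neighbours were named after their values were seen.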
